A study of Mus musculus with 6 samples.

Results

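Respiratory complex assembly factors are proteins that help build the complexes of the mitochondrial respiratory chain and the ATP synthase but are mostly absent from the finished enzymes. A named list of 38 mouse genes was taken, and all 38 were found among the 52740 gene rows of the deposited count table by matching gene identifiers, without their version, to gene symbols. The list holds 13 factors of complex I, 6 of complex III, 12 of complex IV, 3 of complex V, the membrane scaffold genes Stoml2, Phb and Phb2, and the chaperone gene Dnajc30. A total of 37 of the 38 had counts high enough to be tested, among 15022 genes tested.

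Both groups were C2C12 cells, an immortalised mouse myoblast line that fuses into myotubes when serum is withdrawn, kept in serum-rich growth medium. Of the 6 libraries, 3 came from cells transfected with a control siRNA (siCTRL) and 3 from cells transfected with an siRNA against Cox7a2l (siCOX7A2L), whose protein helps join complexes III and IV into respiratory supercomplexes. All 6 were made from total RNA depleted of ribosomal RNA and copied from random primers, so each value is the level of a gene's RNA in the bulk culture. The comparison asks how lowering Cox7a2l RNA altered the RNA of the factors that build the complexes. Because C2C12 is 1 line and nothing in the labels says that the 3 libraries of a group came from separate cultures, a p-value here reflects the spread of these 6 libraries alone, which may be technical.

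Each respiratory complex is put together stepwise, from modules that meet in the inner mitochondrial membrane. Assembly factors hold newly made subunits, insert them into the membrane, or supply the cofactors that carry electrons: copper and haem a for complex IV, the iron-sulfur protein for complex III, and iron-sulfur clusters and flavin for complex I. Loss of single factors such as SURF1, SCO2, BCS1L, ACAD9 or TMEM70 causes mitochondrial disease in people, often of muscle, heart or brain.

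CPM values here are counts scaled to library size after its adjustment by edgeR's TMM factors. Cox7a2l stood at 58.0, 59.5 and 58.9 CPM in siCTRL replicates 1 to 3. In siCOX7A2L replicates 1 to 3 it stood at 6.72, 5.90 and 3.59 CPM. That is 0.0923 of the control level, a log2 fold change of -3.44 (SE 0.19, adjusted p = 1.9e-05 by edgeR's quasi-likelihood test with Benjamini-Hochberg adjustment). Library totals ran from 9890218 estimated counts in siCOX7A2L replicate 3 to 17077826 in siCTRL replicate 3. In each group, replicate 3 differed from the other libraries in its makeup: the 13 protein genes of mitochondrial DNA took 2.78% and 1.61% of counts there, against 0.589% to 0.616% in the other 4 libraries. The 6 myoblast markers were all tested, with Myod1 between 118 and 161 CPM. The summed level of 8 markers of differentiated muscle (6 tested) was 27.0, 24.8 and 168 CPM in siCTRL and 56.0, 28.4 and 420.2 CPM in siCOX7A2L. That of 5 fibroblast markers (3 tested) was 291 to 775 and 224 to 839 CPM. Both sums had the highest value of each group in replicate 3. The fibroblast sum was carried by Col1a1, at 199 to 783 CPM. Pdgfra reached at most 21.6 CPM, Dcn 45.1, Thy1 0.69 and Lum 0.22 CPM. Macrophage markers summed to at most 3.30 CPM with Adgre1 at 0, endothelial markers to at most 1.14 CPM, and adipocyte markers, carried by Pparg, to at most 13.7 CPM. Unless another fit is named, replicate number entered the test as a block, so that each siCOX7A2L library was set against the siCTRL library of its number. The deposited data describe bulk RNA, so fewer cells of a type and less RNA per cell cannot be told apart.

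Promoter windows from RefSeq were found for 32 of the 38 genes. The windows were searched on both strands for the ETS motif CCGGAAG, the NRF1 motif GCATGCGC, the YY1 motif AAGATGGC and the CCAAT box (CCAAT). Stretches of 3 genes whose siCTRL and siCOX7A2L CPM values did not overlap are shown, because each has a different set of these letters. All 3 lie on the minus strand of GRCm38.p6 and run from 250 bases before the start to 30 bases after it, Stoml2 at chr4:43031355-43031634, Atpaf2 at chr11:60417005-60417284 and Uqcc3 at chr19:8880904-8881183. Capitals mark the motif letters, and the stretch CCAATTGG of Atpaf2 holds overlapping CCAAT boxes on opposite strands.
Stoml2: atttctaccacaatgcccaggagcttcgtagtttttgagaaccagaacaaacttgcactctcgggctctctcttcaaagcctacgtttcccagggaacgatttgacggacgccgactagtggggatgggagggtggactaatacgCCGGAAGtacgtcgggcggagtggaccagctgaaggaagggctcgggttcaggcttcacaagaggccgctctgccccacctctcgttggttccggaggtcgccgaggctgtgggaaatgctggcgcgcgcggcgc
Atpaf2: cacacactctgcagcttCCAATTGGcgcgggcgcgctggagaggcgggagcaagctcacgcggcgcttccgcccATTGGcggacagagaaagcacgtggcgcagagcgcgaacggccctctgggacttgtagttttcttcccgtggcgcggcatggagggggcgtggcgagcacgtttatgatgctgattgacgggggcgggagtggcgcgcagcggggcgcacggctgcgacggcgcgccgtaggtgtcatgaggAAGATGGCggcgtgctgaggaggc
Uqcc3: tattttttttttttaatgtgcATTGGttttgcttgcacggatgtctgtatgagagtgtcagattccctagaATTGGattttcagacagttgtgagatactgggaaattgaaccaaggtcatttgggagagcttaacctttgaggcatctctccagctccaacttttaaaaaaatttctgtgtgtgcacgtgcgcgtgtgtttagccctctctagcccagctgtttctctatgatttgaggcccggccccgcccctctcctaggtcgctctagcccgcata
Stoml2 holds 1 ETS motif, Atpaf2 holds 1 YY1 motif and CCAAT letters, and Uqcc3 holds CCAAT letters alone. In full windows of 250 bases before to 50 after the start, the ETS motif was present in 13 of 32 members (40.6%), against 20.1% of the 10079 tested genes with a window and 9.93% of all 27025 genes with one. The holders were Cox10, Cox14, Cox15, Cox16, Cox20, Sco1, Surf1, Bcs1l, Ndufaf1, Ecsit, Timmdc1, Stoml2 and Phb2. The YY1 motif was found in 5 members (15.6%, against 5.44% of tested genes), namely Cox10, Cox20, Uqcc2, Tmem126b and Atpaf2. The NRF1 motif was found in Ttc19, Ndufaf4 and Ndufaf5 (9.38%, against 5.91%) and the CCAAT box in 16 of 32 members, against 43.4% of tested genes. These counts describe letters in a window and were not set against the change in RNA.

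In control cells the factors covered a wide range of levels. On the TPM scale, which divides by transcript length and so allows genes to be compared, the prohibitin gene Phb2 was highest at 162 ± 20.1 TPM (SD, n = 3), followed by Uqcc2 at 107 ± 2.84 TPM and the copper chaperone gene Cox17 at 64.9 ± 57.6 TPM. The place of Cox17 rests on replicate 3, with 131 TPM against 30.6 and 32.7 TPM in replicates 1 and 2. Phb, Stoml2 and Acad9 came next at 47.8 ± 9.04, 43.0 ± 5.50 and 35.6 ± 8.28 TPM, and the SDs of neighbours in this part of the order overlapped. At the low end stood Dnajc30 at 3.38 ± 0.040 TPM, Uqcc3 at 2.99 ± 1.68 TPM and the iron-sulfur factor gene Nubpl at 2.96 ± 1.08 TPM, which could not be separated by their spread. Lyrm7, whose protein holds the Rieske iron-sulfur protein in the matrix, was at 0.544 ± 0.774 TPM and was not tested, with 1 to 8 estimated counts per library. The 38 genes together took 0.0862% to 0.102% of the counts of a library.

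**Figure D1:**
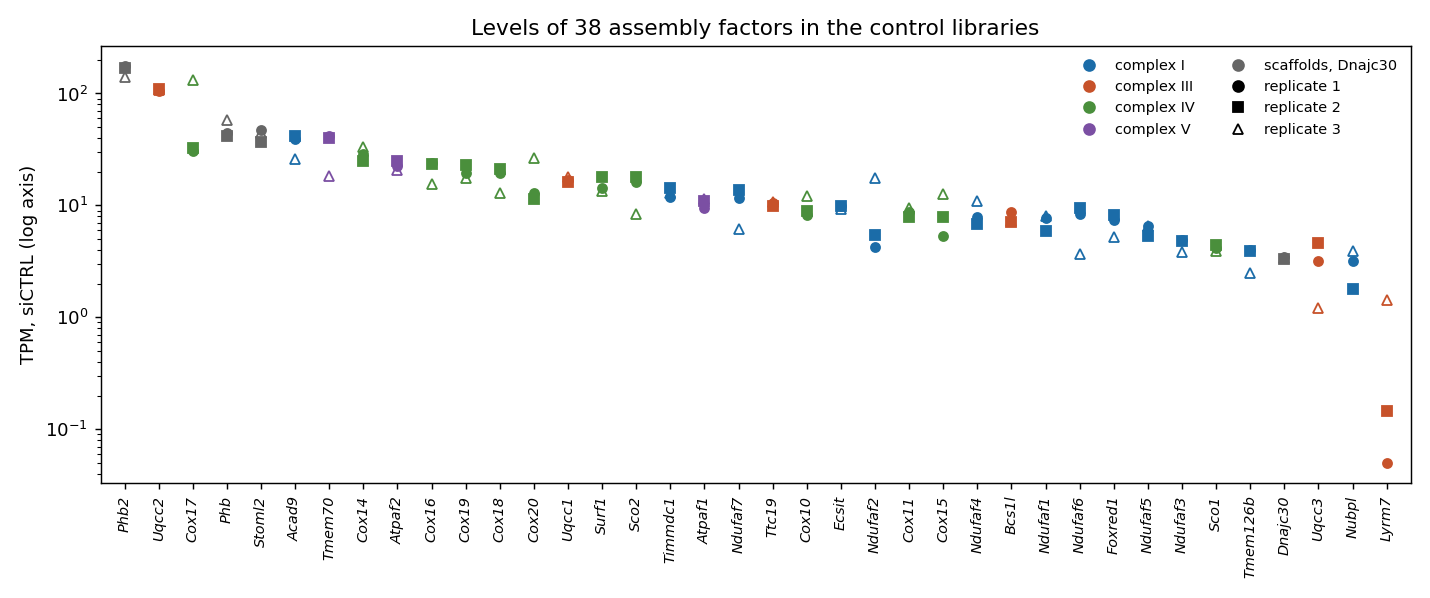
Level of each of the 38 assembly factors in the 3 siCTRL libraries, in TPM on a log axis, ordered by mean, with a symbol per replicate and a colour per complex. Phb2 has the highest mean at 162 TPM and Lyrm7 the lowest at 0.544 TPM, and replicate 3 lies apart from the other libraries for genes such as Cox17.

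Dnajc30 encodes a mitochondrial J-domain protein that has been tied to the ATP synthase and to the turnover of complex I subunits. Its RNA was at 6.21, 6.06 and 5.85 CPM in siCTRL replicates 1, 2 and 3 and at 11.7, 11.7 and 23.8 CPM in siCOX7A2L replicates 1, 2 and 3. The 3 controls were tightly grouped, every knockdown library lay above all of them, and knockdown replicate 3 was the highest by far. The level rose 2.46-fold (log2 fold change 1.3, SE 0.24, adjusted p = 0.0419 by edgeR with the replicate block), with log2 differences of 0.90, 0.93 and 2.00 in pairs 1, 2 and 3. The authors' deposited table gives 1.29 (SE 0.27, adjusted p = 3.5e-04) for it. It was 1 of 37 members called, 2.70%, where 0.726% of all genes tested were called (0.433% called higher). In the same fit without the replicate block the difference was 1.37 and the adjusted p was 0.735, and without replicate 3 it was 0.92 with an adjusted p of 0.0774. The library with the highest Dnajc30 level was also the shallowest and had the largest summed level of differentiated muscle markers, and their part in the result was not tested.

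Dnajc30 has a single exon on chromosome 5 and overlaps Bud23, a gene for an RNA methyltransferase, on the opposite strand. The libraries mark strand, but whether the authors' counting used it is not given in the sources used here, and without strand reads of the overlapping parts cannot be told apart. Bud23 was at 31.7, 31.4 and 33.3 CPM in siCTRL and at 31.2, 24.0 and 31.1 CPM in siCOX7A2L. Its log2 fold change was -0.17 (SE 0.15, adjusted p = 0.595 by edgeR). All its siCOX7A2L values were below all its siCTRL values, narrowly, with 31.2 CPM the highest of siCOX7A2L and 31.4 CPM the lowest of siCTRL. Whether reads of Bud23 were counted for Dnajc30 was not tested. In all, 18 of the 38 members overlap a gene on the opposite strand.

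**Figure D2:**
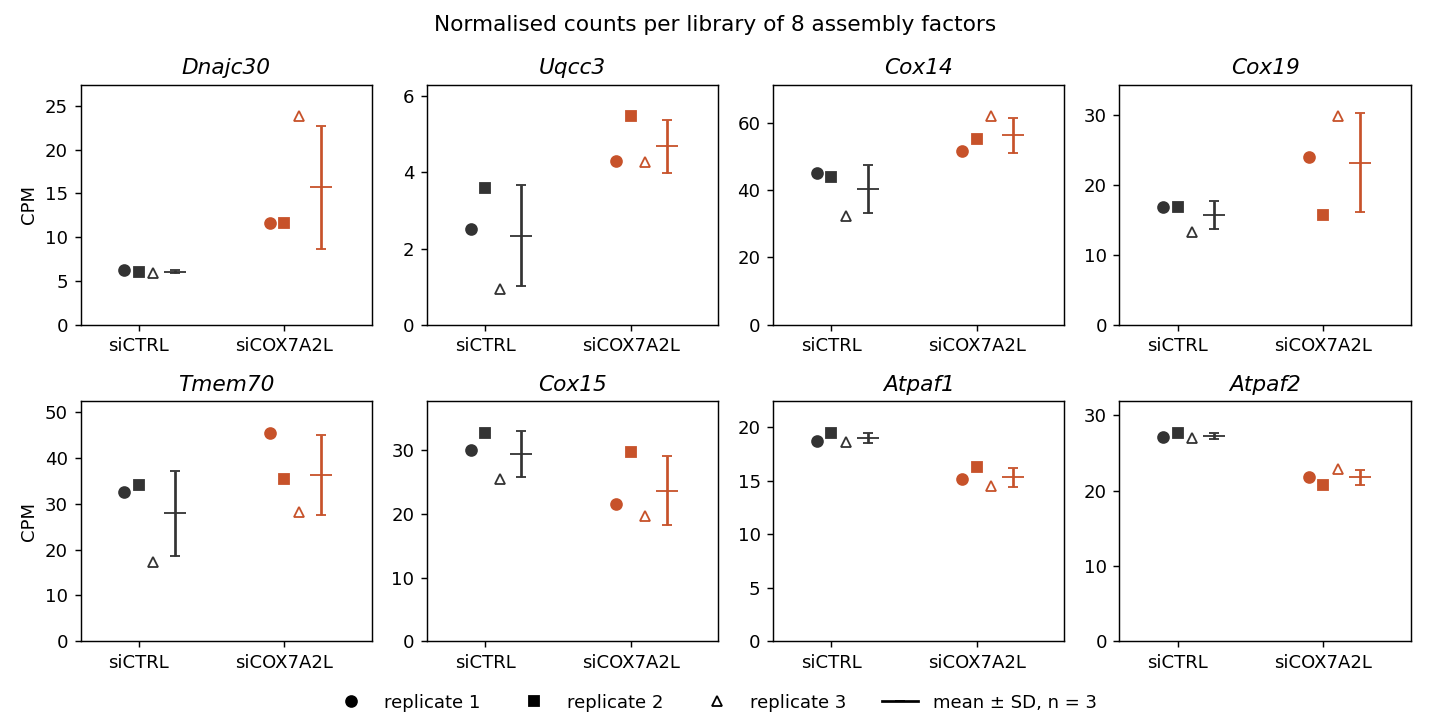
CPM in each library for 8 assembly factors, siCTRL on the left and siCOX7A2L on the right of each panel, with a symbol per replicate and lines for the mean ± SD of 3 libraries. Dnajc30 lies above its controls in all 3 knockdown libraries, at 11.7 to 23.8 CPM against 5.85 to 6.21 CPM, while Atpaf1 and Atpaf2 lie below theirs.

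As a list, with Dnajc30 included, the factors were close to other genes in the share at an unadjusted p under 0.05. The 37 tested members had a median log2 fold change of 0.08, against 0.01 for all genes tested, with medians of 0.08, -0.09 and 0.23 in pairs 1, 2 and 3. A positive value was found for 24 of 37 members (64.9%), where 51.1% of all genes were positive. At an unadjusted p under 0.05 stood 7 members (18.9%), against 17.7% of all genes: Cox14, Cox15, Cox19, Uqcc3, Atpaf2, Tmem70 and Dnajc30. Higher in all 3 pairs were 11 members (29.7%, against 21.2% of genes), and lower in all 3 pairs were 4 (10.8%, against 20.8%). The CPM ranges of the groups did not overlap for 8 members (21.6%, against 15.6% of genes), namely Cox14, Surf1, Uqcc3, Stoml2 and Dnajc30 on the higher side and Atpaf1, Atpaf2 and Phb on the lower side. For Phb the gap between groups was within rounding, since both groups reached 46.2 CPM. These ranges depend on the TMM factors, and overlap on library size alone was not counted. The median SE of a member was 0.18, similar to 0.17 for all genes.

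**Figure D3:**
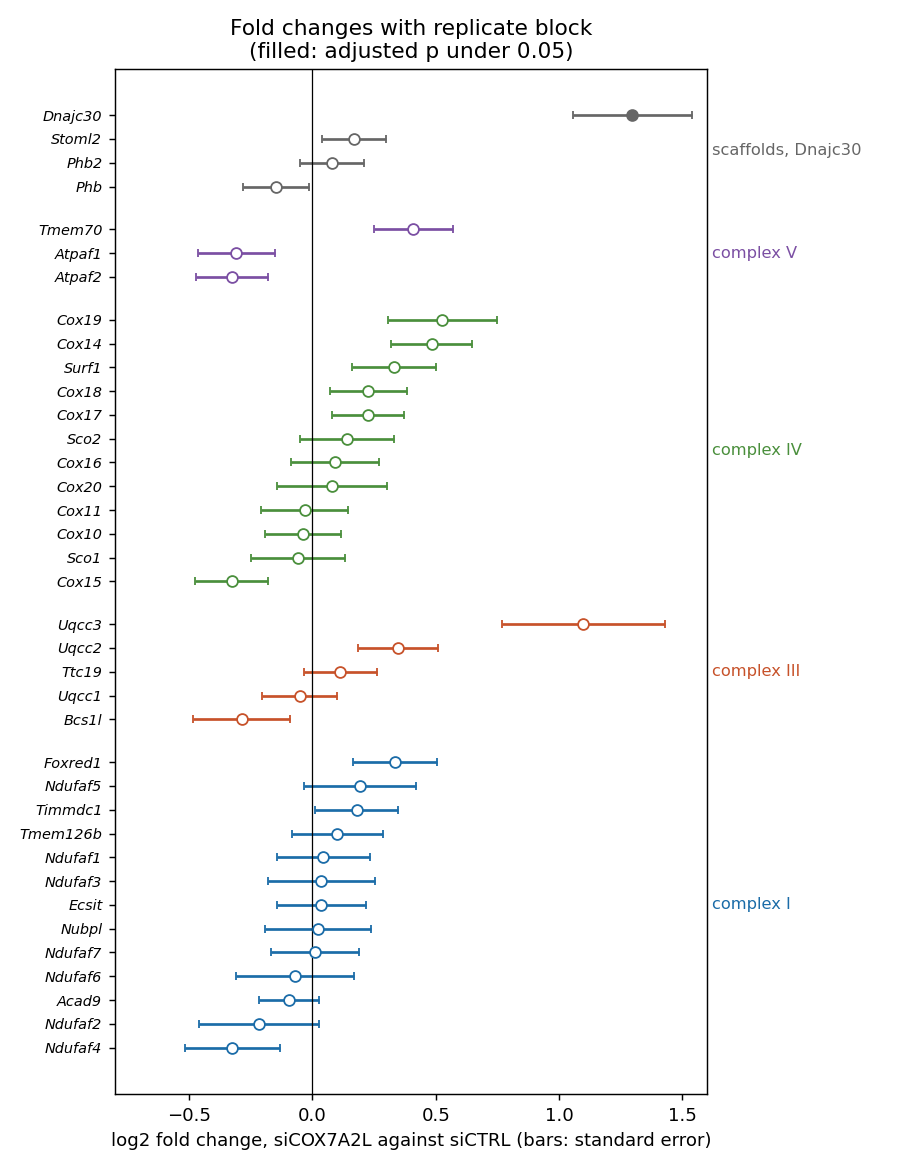
Log2 fold change of siCOX7A2L against siCTRL for the 37 tested assembly factors in the fit with replicate block, grouped by complex, with bars for the standard error. Filled points have an adjusted p under 0.05, and Dnajc30, at 1.3, is the filled one among them.

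Complex IV factors supply haem a and copper to cytochrome c oxidase and insert its subunits. No change was called for any of the 12 (edgeR, with 3 at an unadjusted p under 0.05, where 17.7% of all genes were). Of the 12, 8 were positive, with a median of 0.12 and values from -0.33 to 0.53. The 5 genes of subunit insertion and early assembly were all positive, median 0.23. Cox14, which acts with newly made COX1, was at 45.2, 43.8 and 32.2 CPM in siCTRL and at 51.5, 55.2 and 61.9 CPM in siCOX7A2L. Every knockdown library was above every control, most widely in replicate 3. Its log2 fold change was 0.48 (SE 0.16, adjusted p = 0.166), and it passed the threshold (adjusted p = 0.0373) where genes of low counts were kept in the test, while without replicate 3 it was 0.26 (adjusted p = 0.399). On the TPM scale, limma with the replicate block gave -0.015, where the median of all genes lay at -0.21. Surf1, which acts early in the assembly of COX1, was at 13.8 to 17.8 CPM in siCTRL and at 18.2 to 20.5 CPM in siCOX7A2L, with a log2 fold change of 0.33. Cox18, which moves the tail of COX2 across the membrane, had 0.23, Cox16 had 0.09 and Cox20, a chaperone of COX2, had 0.08.

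Among the 5 copper delivery genes, Cox19 had the highest fold change of complex IV. This gene for a soluble protein of the intermembrane space was at 16.8, 16.9 and 13.3 CPM in siCTRL and at 24.1, 15.7 and 29.9 CPM in siCOX7A2L. Knockdown replicates 1 and 3 lay above the controls and replicate 2 lay within them, with a log2 fold change of 0.53 (SE 0.22, adjusted p = 0.25). Without replicate 2 it was 0.83 with an adjusted p of 0.00648, and without replicate 3 it was 0.21 with an adjusted p of 0.667. Cox17, the chaperone that hands copper to the others, was at 20.4, 20.2 and 44.1 CPM in siCTRL and at 22.7, 21.2 and 60.0 CPM in siCOX7A2L. Here replicate 3 of each group was far above the other libraries, and the difference between groups was small beside it (log2 fold change 0.23, SE 0.15, adjusted p = 0.455). Sco2 and Sco1, which load copper on COX2, had log2 fold changes of 0.14 and -0.06, and Cox11, which serves the copper site of COX1, had -0.03. Of the 31-base words of Sco2 transcripts, 66.2% also occur in other genes, and Tymp, which shares the most of them, was at 2.21 and 1.78 CPM (means of siCTRL and siCOX7A2L).

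The 2 genes of haem a synthesis had negative values, with a median of -0.18. Cox15, the enzyme of the last step of haem a synthesis, was at 29.97, 32.8 and 25.6 CPM in siCTRL and at 21.6, 29.8 and 19.7 CPM in siCOX7A2L. It was lower in all 3 pairs, although the groups overlapped through knockdown replicate 2. Its log2 fold change was -0.33 (SE 0.15, adjusted p = 0.280), the lowest of complex IV. Cox10, which makes the haem o precursor, had -0.04.

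Complex III factors act on cytochrome b or on the Rieske protein. No change was called among the 5 tested (edgeR, 1 at an unadjusted p under 0.05, where 17.7% of all genes were), with a median of 0.11. Uqcc3, which holds newly made cytochrome b, was at 2.51, 3.58 and 0.927 CPM in siCTRL and at 4.31, 5.48 and 4.27 CPM in siCOX7A2L. Each knockdown library was above all controls, and the lowest value was control replicate 3. The fitted level was 2.14-fold that of the controls (log2 fold change 1.10, SE 0.33, adjusted p = 0.129), and it rested on 16 to 78 estimated counts per library. It passed the threshold with low genes kept (adjusted p = 0.0128) and without replicate 2 (1.40, adjusted p = 0.0337), but was 0.69 without replicate 3 (adjusted p = 0.26) and 0.62 without siCTRL replicate 3 in the fit with no block. Its partners in cytochrome b handling were Uqcc2, at 41.4 to 43.1 CPM in siCTRL and 42.2 to 71.0 CPM in siCOX7A2L (log2 fold change 0.35, SE 0.16, adjusted p = 0.296), and Uqcc1 (-0.05). On the TPM scale Uqcc1 was at 16.2 to 18.1 in siCTRL and at 10.8 to 11.8 in siCOX7A2L, without overlap. All genes had a median log2 fold change of -0.21 on that scale (limma, pseudocount 0.5). The share of all genes without overlap in TPM was not counted, so the separation of Uqcc1 has no background. Of the Rieske protein factors, Bcs1l, the ATPase that moves the Rieske protein through the membrane, was at 11.4 to 14.8 and 8.42 to 12.6 CPM (log2 fold change -0.29, SE 0.20, adjusted p = 0.486), and Ttc19, which clears its fragments, had 0.11.

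Complex I factors cover both arms of the complex. None of the 13 was called and none reached an unadjusted p under 0.05 in edgeR, DESeq2 or limma with all 6 libraries. Their median was 0.04, with 9 of 13 positive and values from -0.32 to 0.34. The factors of the membrane arm had a median of 0.05. Of these, Acad9, a flavoprotein of the complex that builds this arm, was at 91.2, 88.5 and 79.5 CPM in siCTRL and at 91.9, 80.8 and 70.9 CPM in siCOX7A2L. The groups overlapped, with a log2 fold change of -0.09 (SE 0.12, adjusted p = 0.735). Its companions Ndufaf1, Ecsit, Tmem126b and Timmdc1 had values of 0.05, 0.04, 0.10 and 0.18.

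The factors of the matrix arm and of later steps had a median of 0.02. Foxred1, an oxidoreductase of later steps, stood at 17.1, 19.0 and 11.6 CPM in siCTRL and at 22.6, 19.2 and 17.7 CPM in siCOX7A2L. Its log2 fold change of 0.34 (SE 0.17, adjusted p = 0.337) was the highest of complex I, and the groups overlapped. At the other end, Ndufaf4, which works with Ndufaf3 on the arm that binds quinone, stood at 11.9, 11.8 and 11.5 CPM in siCTRL and at 11.9, 8.005 and 8.53 CPM in siCOX7A2L (-0.32, SE 0.19, adjusted p = 0.411). Knockdown replicates 2 and 3 were below the controls and replicate 1 was level with them. Ndufaf3, the methyltransferase gene Ndufaf7, the hydroxylase gene Ndufaf5, Ndufaf6 and Nubpl ranged from -0.07 to 0.19. Ndufaf2, a late factor, went from 2.64, 3.37 and 10.5 CPM in siCTRL to 2.03, 2.53 and 10.9 CPM in siCOX7A2L, with a log2 fold change of -0.22 (SE 0.24). It was far higher in replicate 3 of both groups than elsewhere.

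Of the complex V factors, 1 had a positive and 2 had negative fold changes. Atpaf2, a chaperone of the alpha subunit of the F1 head, was at 27.1, 27.7 and 27.0 CPM in siCTRL and at 21.7, 20.8 and 22.8 CPM in siCOX7A2L. All knockdown libraries were below all controls, and both groups were tight. Its log2 fold change was -0.33 (SE 0.14, adjusted p = 0.274). Atpaf1, which chaperones the beta subunit, was at 18.7, 19.5 and 18.6 CPM in siCTRL and at 15.1, 16.3 and 14.5 CPM in siCOX7A2L, again without overlap (-0.31, SE 0.16, adjusted p = 0.332). On the TPM scale the groups of Atpaf1 overlapped, at 9.51 to 11.5 in siCTRL and 8.70 to 10.1 in siCOX7A2L. Those of Atpaf2 did not, at 20.9 to 24.7 and 15.5 to 16.5 TPM. The median log2 fold change of all genes on that scale was -0.21 (limma, pseudocount 0.5), and the share of genes without overlap was not counted. Tmem70, which helps form the ring of c subunits in the membrane, was at 32.5, 34.1 and 17.2 CPM in siCTRL and at 45.5, 35.3 and 28.2 CPM in siCOX7A2L. It was higher in each pair, but control replicates 1 and 2 lay above knockdown replicate 3 (0.41, SE 0.16, adjusted p = 0.216). The 3 genes had a median of -0.31 and none was called (edgeR, 2 at an unadjusted p under 0.05, where 17.7% of all genes were).

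Differences of the scaffold genes in CPM were small. Phb and Phb2 encode the subunits of the prohibitin ring of the inner membrane, and Stoml2 a stomatin-like protein that binds it. Stoml2 was at 47.0, 43.1 and 41.5 CPM in siCTRL and at 50.3, 48.9 and 48.6 CPM in siCOX7A2L, every knockdown library above every control (0.17, SE 0.13, adjusted p = 0.547). On the TPM scale Stoml2 was lower in each pair, at 47.6, 36.9 and 44.4 in siCTRL and 41.6, 32.7 and 18.5 in siCOX7A2L. The median log2 fold change of all genes on that scale was -0.21 (limma, pseudocount 0.5). Phb was at 46.2 to 48.4 and 40.4 to 46.2 CPM (-0.15, SE 0.13, adjusted p = 0.615). Phb2 was at 182 to 194 and 169 to 230 CPM (0.08, SE 0.13, adjusted p = 0.806). Of the 31-base words of Phb, 33.8% also occur in other genes. The pseudogene Gm7666, which shares the most of them, was itself given 27.6 to 85.8 CPM, so reads of the pair may have been split between them. Of the 38 members, 6 share over 10% of their words with other genes: Phb, Sco2, Cox16, Atpaf1, Acad9 and Cox20. AC160336.1, which shares the most words with Acad9, was at 275 to 374 CPM. Gm20498, which shares the most with Cox16, was at 4.09 to 8.98 CPM. For Atpaf1 and Cox20 these genes were Gm14117 and Cox20b, both at 0 CPM. Whether reads were split between such genes was not tested.

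**Figure D4:**
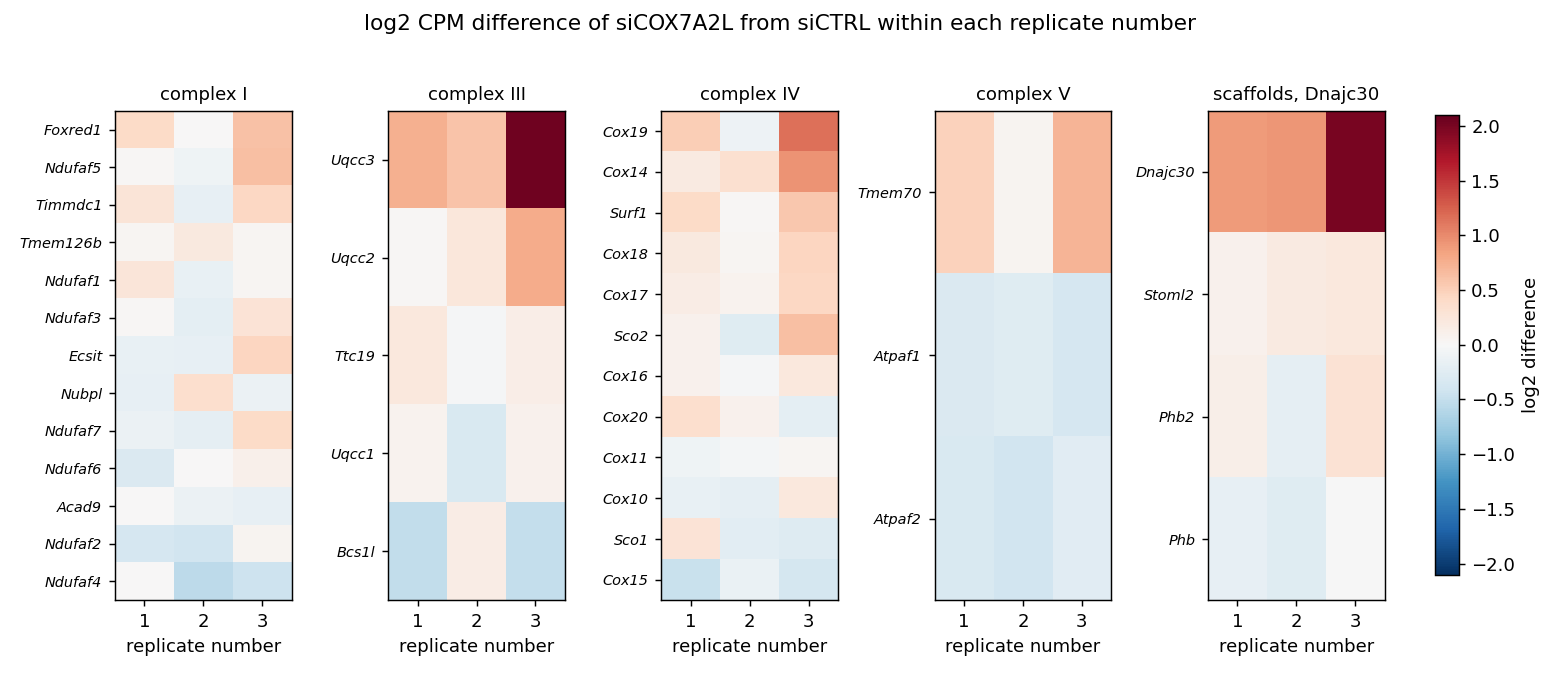
Difference in log2 CPM between siCOX7A2L and siCTRL within each replicate number, as colour, for each assembly factor in panels by complex. Pair 3 holds the largest positive differences, such as 2.05 for Uqcc3 and 2.00 for Dnajc30, while Atpaf1, Atpaf2 and Cox15 are lower in all 3 pairs.

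No member of the 4 sets of complex factors was called in edgeR with the replicate block, and the sets had medians of 0.04 for complex I, 0.11 for complex III, 0.12 for complex IV and -0.31 for complex V over 13, 5, 12 and 3 genes. These medians describe lists of few genes, and no test of their difference was made. On TPM values they were -0.22, -0.28, -0.10 and -0.13, where the median of all genes was -0.21. The complex V median thus lay below that of all genes on counts in edgeR and above it on TPM. The complex III median did the reverse, and that of complex IV lay above it on both. In complex V the middle gene was Atpaf1 on both scales. On TPM Atpaf2 had -0.505 and Tmem70 had 0.285 (limma, pseudocount 0.5), so the side of the median is that of 1 gene. The complex I median lay above that of all genes on counts, and on TPM its side depended on the pseudocount. It was -0.2154 against -0.2056 for all genes with a pseudocount of 0.5, and -0.2239 against -0.2395 with 0.1.

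No other gene listed of the same machinery was called by edgeR with the default filter, against 0.726% of all genes. In that fit 17.7% of all genes had an unadjusted p under 0.05. With low genes kept edgeR called 4.7% of all genes, and DESeq2 called 4.42%. Of 27 further assembly factors listed, 26 were found and 25 tested, with 19 positive and a median of 0.16. With the default filter none was called by edgeR, with 5 at an unadjusted p under 0.05, and none was called by DESeq2. With low genes kept, edgeR called 4 of 26, where 4.7% of all genes were called. The nuclear subunit genes of complex I were positive in 34 of 36, with a median of 0.19. None passed in edgeR with the default filter (5 at an unadjusted p under 0.05), 2 passed with low genes kept and 1 passed in DESeq2. The subunit genes of complexes II, III, IV and V had medians of -0.17, 0.05, 0.16 and 0.06 over 4, 9, 11 and 15 genes. No change was called among them in DESeq2 or in edgeR with the default filter, where 0, 3, 1 and 0 genes had an unadjusted p under 0.05. With low genes kept, edgeR called 1, 1, 2 and 0 of them, beside the same 4.7% of all genes. The 13 protein genes of mitochondrial DNA had a median of -0.08, with none called by either tool (1 and 2 at an unadjusted p under 0.05 in edgeR and DESeq2).

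How many members were called depended on the fit, as did the number of all genes called. Dnajc30 alone was called with replicate 3 set apart by its own term instead of the block (1.31% of all genes), with DESeq2's size factors in edgeR (0.726%), in DESeq2 with the block (1 of 36 members with an adjusted p, 4.42% of genes) and without replicate 1 (2.45%). In the authors' deposited table it was also the 1 member called, where 6.34% of genes were. With low genes kept, Dnajc30, Uqcc3 and Cox14 were called, 3 of 38 members, where 4.7% of genes were. Without replicate 2, Dnajc30, Uqcc3 and Cox19 were called, 3 of 37, where 7.87% of genes were. No member was called without the block in edgeR (0.0133% of genes), with 2 at an unadjusted p under 0.05, Cox14 and Dnajc30, against 6.35% of genes. Nor was any called with library size alone (0.386%, with 7 at an unadjusted p under 0.05), in limma on TPM with a pseudocount of 0.5 (0.0932%) or 0.1 (0.0599%), each with 5 at an unadjusted p under 0.05, or without replicate 3 (0.339%, with 3). The percentages in that sentence are shares of all genes at the adjusted threshold. Shares of all genes at an unadjusted p under 0.05 were not counted for those fits, so its unadjusted counts have no background.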

How the data were processed

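RNA of 6 C2C12 libraries, 3 per group, was measured by RNA-seq. The authors deposited estimated counts per gene and TPM values, scaled to transcript length. Their result table holds, per the file headers, a normalised signal per library, log2 fold changes and p-values. The submitters' processing notes name the build mm39 and the tools DESeq2 1.30.1, Salmon 0.13.1 and Trim Galore 0.6.4. Symbols were joined by gene identifier without version (GENCODE M21), and 97.6% of gene rows received one. One row without a symbol held 36.9% to 53.6% of the TPM sum, on which the TPM of other genes depends.

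After rounding of the counts to whole numbers, the test was edgeR 4.0.16 under R 4.3.3 (TMM factors, default filter by group, robust quasi-likelihood fit, replicate number as a block, Benjamini-Hochberg adjustment over all genes, threshold 0.05). Same-numbered libraries of the 2 groups deviated together, with correlations of 0.53, 0.45 and 0.67 between their deviations from the group means, each above 0.1. Libraries 1 and 2 of opposite groups correlated nearly as well (0.43 and 0.44), so the values set replicate 3 apart more than they pair 1 with 1 and 2 with 2. Pair differences use log2 CPM with a prior count of 2. Alternatives used group alone, a term for replicate 3, other scaling, no filter, DESeq2 1.42.0, limma 3.58.1 on log2(TPM + 0.5) and log2(TPM + 0.1), and left-out replicates. The edgeR step was run on simulated counts in which libraries of the same replicate number shared their means by design. That run checks the code and cannot show whether the block suits these data. Promoter windows are RefSeq's on GRCm38.p6, and no coordinates of mm39 are given. Library totals of 9890218 to 17077826 estimated counts set the precision, lowest for genes of few counts such as Uqcc3.

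The members and lists were chosen with earlier results of these data known. Full statistics are given for members past the threshold, for the highest and lowest fold change and the highest TPM of each set, and for members called in an alternative with all 6 libraries. Exon classes, motifs and further values were chosen after values were seen.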

Additional observations from a re-analysis of the deposited data

How the results depend on the processing

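Complex I, III, IV and V medians, and that of the scaffolds with Dnajc30, all moved on TPM values, where the median of all genes was -0.21 with a pseudocount of 0.5 and -0.24 with 0.1, against 0.01. In that order they were -0.22, -0.28, -0.10, -0.13 and -0.36 with 0.5, and -0.22, -0.29, -0.11, -0.14 and -0.36 with 0.1. On this scale Cox14 had -0.015 with either pseudocount, Phb2 had -0.28 with either, and Dnajc30 had 0.92 (adjusted p = 0.198) and 1.00 (adjusted p = 0.234), and 0 members were called. Library size alone gave 0 members, 0.071 for complex III, -0.35 for complex V and 1.25 for Dnajc30 (adjusted p = 0.05002, just above the threshold). The complex III median was 0.022 with no filter, where 3 members were called, and 0.023 in DESeq2, both with the replicate block and with Lyrm7 entering. With no replicate block 0 members were called and Dnajc30 had 1.37 (adjusted p = 0.735). Leaving out both libraries of a replicate number gave 0 to 3 members called, 0.054 to 0.18 for complex III, -0.31 to -0.28 for complex V, 0.92 to 1.49 for Dnajc30 and -0.040 to 0.21 for Phb2. The medians of complex I, complex IV and the scaffolds were then -0.062 to 0.11, 0.076 to 0.22 and 0.049 to 0.18, with the lowest value of each without replicate 3. Leaving out single libraries with no replicate block gave 0 members called throughout. The complex IV median was at its lowest there, 0.024, without siCTRL replicate 3. Without 1 control library, complex III had -0.008 to 0.19 (0.18 without siCTRL replicate 2) and Dnajc30 1.35 to 1.39. Without 1 knockdown library they had -0.028 to 0.14 and 0.94 to 1.54, complex V had -0.30 to -0.27, and without siCOX7A2L replicate 3 Cox17 had -0.37 and Phb2 -0.033. Low counts limit Uqcc3 and Lyrm7 most, whose lowest libraries held 16 and 1 estimated counts. For Uqcc3 that library was siCTRL replicate 3, which had the highest total of estimated counts.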

Other observations

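Some factors differed more between replicate 3 and the other replicates than between the siRNAs, in both groups. Ndufaf2 was higher in replicate 3 than in the mean of replicates 1 and 2 by 1.77 (log2) in siCTRL and by 2.20 in siCOX7A2L, Cox17 by 1.11 and 1.45, and Cox20 by 1.06 and 0.63. Sco2 was lower there by log2 values of -1.06 and -0.34, Tmem70 by -0.94 and -0.51, Tmem126b by -0.76 and -0.84, and Cox18 by -0.81 and -0.49. For Dnajc30 this difference was -0.065 in siCTRL and 1.02 in siCOX7A2L, and for Uqcc3 it was -1.56 and -0.18. These differences were not tested.

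Members with 1 or 2 exons were positive in 5 of 5 (Cox14, Cox17, Sco2, Uqcc3 and Dnajc30), with a median log2 fold change of 0.48. Among the 1007 tested protein-coding genes with as few exons 58.1% were positive, with a median of 0.08. In pair 3 the medians were 0.94 for these members and 0.19 for those genes. Members with 3 to 5 exons were positive in 8 of 11 (median 0.08), against 56.4% of protein-coding genes of that class (median 0.04). For 6 to 9 exons the values were 4 of 12 (median -0.06) against 52.9% (median 0.02), and for 10 or more exons 7 of 9 (median 0.08) against 47.2% (median -0.02). Classes were chosen after the values were seen, and no test was made.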
